A study of Mus musculus with 4 samples.

Results

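The Hox, Cdx, Meis and Pbx genes were followed across 4 arrays of mouse cells derived from embryonic stem (ES) cells. They were chosen by name, as every probe set (a group of short oligonucleotides that together measure 1 transcript) annotated to 1 gene symbol only, where that symbol is a Hox cluster gene, Cdx1, Cdx2, Cdx4, a Meis gene or a Pbx gene. This gave 50 probe sets of 40 genes, out of 12422 tested probe sets and 8251 genes. The 40 genes comprise 31 coding Hox genes (10 of the Hoxa cluster, 9 of Hoxb, 5 of Hoxc and 7 of Hoxd), 3 Cdx genes, 3 Meis genes, 2 Pbx genes and Hoxa11os, a transcript antisense to Hoxa11. A further 3 probe sets annotated to several symbols of these families were outside the rule.

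Hox genes encode homeodomain transcription factors that give cells their position along the body axis. They lie in 4 clusters, and genes of the same number in different clusters are paralogs. Cdx factors act upstream of Hox genes in posterior mesoderm and are needed for embryonic blood formation. Meis and Pbx proteins are homeodomain partners that bind DNA together with Hox proteins, and Meis1 and Hoxa9 are well known in blood progenitors and leukemia.

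All samples came from the Scl+/hCD4 ES cell line, in which human CD4 on the cell surface reports the expression of Scl, the blood and endothelial transcription factor encoded by Tal1. According to the labels, ES cells kept on mitotically inactivated STO feeder cells with LIF were differentiated with FCS into embryoid bodies for 2.75 days. Embryoid body cells positive for Flk-1 and for human CD4 were sorted as hemangioblasts, and others were replated and their blast colonies picked and pooled. The titles give 2 arrays of the group Hemangioblast and 2 of the group hCD4. The sample sources call these groups differentiated hemangioblasts and cultured hCD4 ES cells, while the design text speaks of hCD4 and Blast, so the labels differ on which cells each array holds. The groups are called here by their array titles. The labels do not say whether the 2 arrays of a group hold RNA of separate cultures, so each p-value rests on a spread between arrays that may be technical.

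Each array had a median intensity of 165 to 197, and the ratio of 3' to 5' signal of the Gapdh control, a sign of RNA integrity, ran from 1.03 to 1.33. Markers of other cell types moved with the groups. The summed scaled intensity of 14 measured myeloid markers was 10583 to 10980 in the Hemangioblast group and 1335 to 1576 in the hCD4 group (10 higher, 0 lower past the threshold used below), and that of 11 erythroid markers was 40080 to 42864 against 13642 to 14661 (9 higher, 0 lower). The 10 endothelial markers summed to 5317 to 5792 against 4035 to 4398 (3 higher, 0 lower), although their median log2 change, Hemangioblast minus hCD4, was -0.04. The 12 markers of hemangioblast mesoderm summed to 4818 to 5528 against 8081 to 8889 (0 higher, 4 lower), so the arrays titled Hemangioblast carried less signal for the genes of that name. The 11 pluripotency markers summed to 4770 to 4858 against 6117 to 8150 (0 higher, 2 lower). The 14 fibroblast markers, which cover feeder cells, summed to 3516 to 4039 against 3404 to 3584 (1 higher, 1 lower). Between the groups, fewer cells of a type and less RNA per cell cannot be told apart.

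Meis1 was the member that changed. Among the member probe sets it has only 1 (98790_s_at), so no second set could be compared. Its scaled intensity was 108 and 111 on the Hemangioblast arrays, against 10.1 and 8.85 on the hCD4 arrays. The 2 groups lay far apart and the arrays within each lay close together. The log2 change, Hemangioblast minus hCD4, was 2.30 (SE 0.331, n = 2 and 2, limma adjusted p = 0.00686). This change is on the scale log2(scaled intensity + 16), and because the hCD4 values lie under the added constant of 16, the constant sets part of its size: with a constant of 1 the change was 3.40 and with 64 it was 1.24. With each array left out in turn, the adjusted p of Meis1 ran from 0.0258 to 0.0418. Of the markers, 10 of 14 myeloid, 9 of 11 erythroid and 3 of 10 endothelial genes were higher on the same arrays, and their part in the Meis1 result was not tested.

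The stretch before a start site of Meis1 is shown because this gene carries the one change. It comes from the RefSeq promoter table (GRCm38.p6, chr11:19018970-19019219, minus strand) and holds the 250 bases before 1 annotated start. The annotated gene reaches further upstream, so the window does not precede every Meis1 transcript. Capitals mark the match to CANNTG, the E-box bound by Scl and its partners, and the match to CCGGAAG, an Ets motif, which lies on the opposite strand.
Meis1: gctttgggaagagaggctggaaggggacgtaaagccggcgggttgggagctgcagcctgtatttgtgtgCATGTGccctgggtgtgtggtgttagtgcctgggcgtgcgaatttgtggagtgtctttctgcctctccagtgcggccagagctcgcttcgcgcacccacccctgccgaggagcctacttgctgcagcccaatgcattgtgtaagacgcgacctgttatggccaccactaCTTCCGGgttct
Motifs were searched on both strands, and the 2 matches do not overlap. Of 32851 promoter windows of the same 250-base length in the table, 66.2% hold CANNTG and 6.91% hold CCGGAAG. The Meis1 window held 0 matches to AGATAA (the GATA motif, in 9.99% of windows), TGACAG (Meis, 15.9%), TTTATNG (Cdx, 9.81%) and AGGTCA (the half-site of retinoic acid receptors, 14.0%). The window of Meis3 held 1 match to CCGGAAG and that of Meis2 held 1 to TTTATNG. Over the family, 26 of 39 coding member genes matched the table, with 28 windows, of which 19 hold CANNTG, 0 hold AGATAA, 2 hold CCGGAAG, 2 hold TGACAG, 2 hold TTTATNG and 4 hold AGGTCA. A match describes the letters of the window only.

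The other Meis genes did not pass the threshold. Meis2 was at 161 and 220 on the Hemangioblast arrays, against 157 and 251 on the hCD4 arrays (log2 change -0.07, SE 0.298, limma adjusted p = 0.955), so its arrays overlapped. Meis3 was at 133 and 166 against 168 and 186 (-0.23, SE 0.260, limma adjusted p = 0.773), with both Hemangioblast arrays just below both hCD4 arrays.

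In the plot of change against level, Meis1 has the highest change of the 50 member probe sets, and a set of Pbx3 the lowest.

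**Figure D1:**
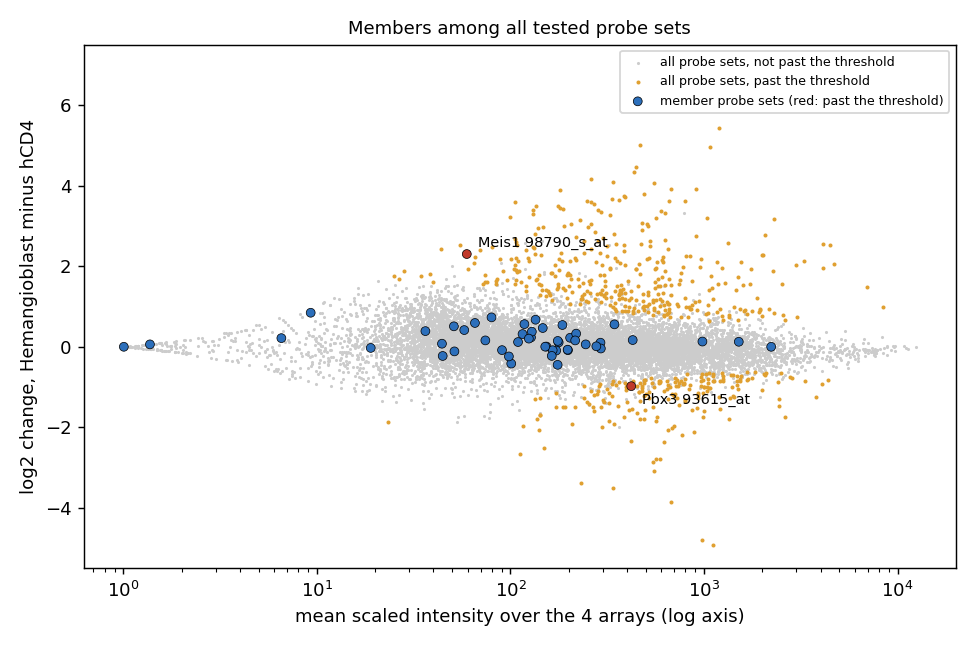
Log2 change (Hemangioblast minus hCD4, y axis) against mean scaled intensity over the 4 arrays (x axis, log scale) for the 12422 tested probe sets, with the 50 member probe sets as large points. Meis1 is at a change of 2.30 and 1 probe set of Pbx3 at -0.98, and both are past an adjusted p of 0.05, while the other member probe sets are not.

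Over the whole family, 1 of 40 genes was higher on the Hemangioblast arrays and 0 were lower at an adjusted p of 0.05 (limma, Benjamini-Hochberg over all probe sets), when each gene is represented by its brightest probe set. Over all genes, 3.43% were called higher and 1.95% lower (5.38% in either direction). Counted as probe sets, 1 of 50 was higher (Meis1) and 1 was lower (a set of Pbx3), beside 2.91% and 1.56% of all probe sets (4.48% in either direction). At an unadjusted p of 0.05, 2 members (Meis1 and Hoxa3) and 18.3% of all genes passed, and 0 members passed in the lower direction. With so few members called, these counts do not set the members apart from all genes. The median log2 change of the 40 genes was 0.13, against 0.02 over all genes. With the arrays scaled to their medians it was 0.04, and it was 0.22 without Hemangioblast replicate 1, 0.05 without Hemangioblast replicate 2 and 0.23 without hCD4 replicate 2.

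For 15 members both Hemangioblast arrays were above both hCD4 arrays, and for 3 (Hoxb1, Hoxc5 and Meis3) both were below. Over all genes 24.5% lay above and 22.0% below (46.6% in either direction). Of the 50 member probe sets 17 lay above and 5 below, beside 24.8% and 19.7% of all probe sets (44.4% in either direction). Of the 58 measured genes of unrelated tissues, such as retina, lens, sperm and pituitary, 12 lay above and 1 below. None of the 58 passed the threshold in either direction (4 did at an unadjusted p of 0.05). Their log2 changes were above 0 for 30 and below 0 for 28, with a median of 0.03. The members had 28 above 0, 12 below and a median of 0.13.

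Few members reached the brightest signals seen for genes of other tissues. The table gives no detection calls, so the background was taken from those 58 genes: a member was counted as above background in a group where both arrays exceeded the 90th percentile of the 58 on that array, which was 346 to 441. By this rule 4 of 40 members were above background on the Hemangioblast arrays (Hoxa4, Hoxa6, Hoxb8 and Pbx3) and the same 4 on the hCD4 arrays, where 32.3% and 36.4% of all genes were. For 3 of these, Hoxa4, Hoxa6 and Hoxb8, the brightest probe set has the suffix _r_at. The array maker gives it to sets picked after some of its rules for choosing oligonucleotides were dropped. When member sets ending in _r_at or _f_at (shared by a gene family) were left out, 1 member, Pbx3, was above background in each group. Against the median of the 58 genes (80.6 to 106), 27 members were above on the Hemangioblast arrays, against 28 on the hCD4 arrays, beside 74.1% and 73.0% of all genes. Oligonucleotides differ in how brightly they bind, so this is a reference level, and a member under it may still be transcribed. The highest value of Meis1, 111, lay under the 90th percentile, although its groups stood apart (hCD4 values of 10.1 and 8.85).

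**Figure D2:**
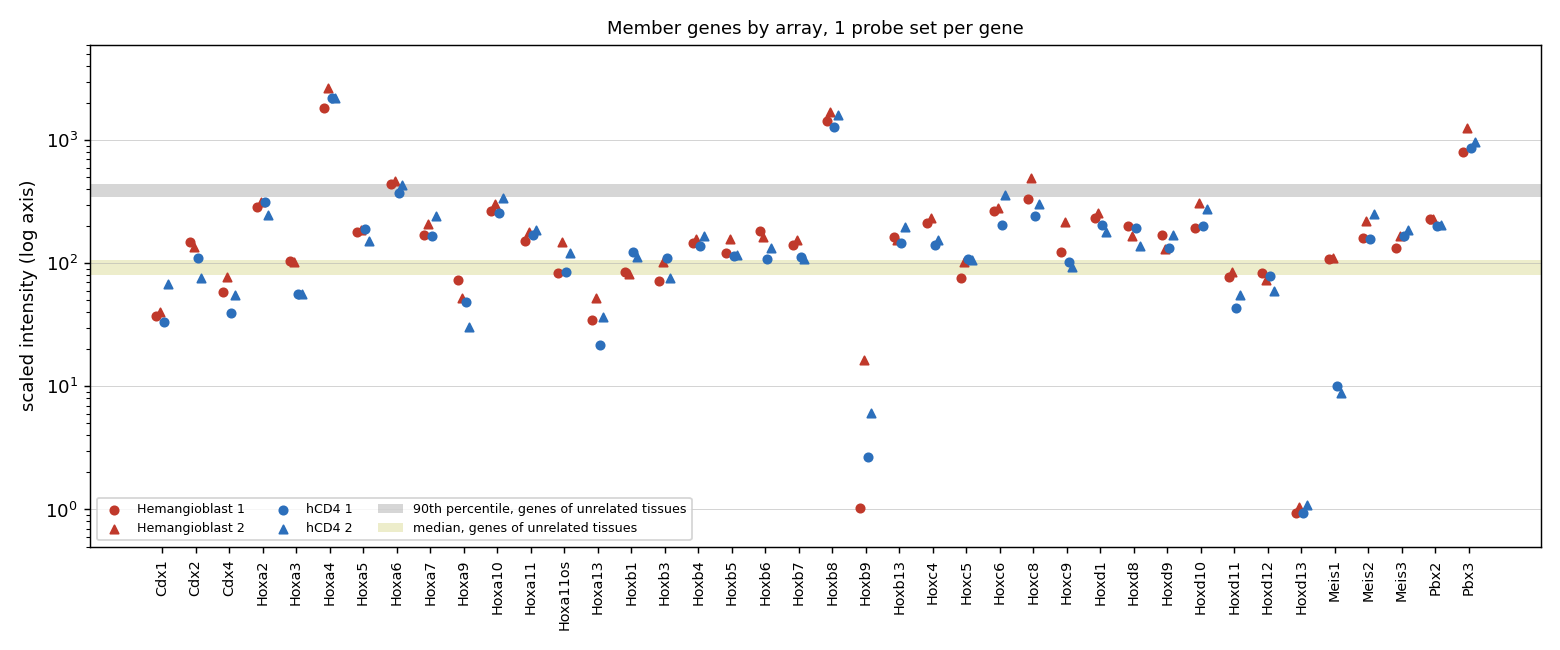
Scaled intensity (log axis) of the 40 member genes on each of the 4 arrays, with the range over arrays of the 90th percentile (346 to 441, grey) and the median (80.6 to 106, yellow) of 58 genes of unrelated tissues. Hoxa4, Hoxa6, Hoxb8 and Pbx3 reach or pass the grey band on all arrays, and the groups of Meis1 stand furthest apart.

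The bright Hox signals came from single probe sets that the other sets of the same gene did not share. Hoxa4, a paralog group 4 gene, has 4 probe sets. The brightest (97747_r_at) was at 1834 and 2646 on the Hemangioblast arrays, against 2199 and 2212 on the hCD4 arrays, while another (97745_at) was at 2.41 and 1.05 against 0.936 and 1.09, at or near the lowest values of the arrays. The remaining 2 had means of 218 against 188 (162402_r_at) and 20.0 against 18.0 (97746_f_at). No Hoxa4 set passed the threshold, and the log2 changes ran from -0.03 to 0.22. Hoxa6, which patterns the thoracic region, was at 442 and 464 against 374 and 432 by 102580_r_at, and at 28.2 and 73.1 against 54.4 and 49.6 by 102579_f_at. Hoxb8, whose overexpression can keep myeloid progenitors immature, was at 1437 and 1712 against 1286 and 1610 by 96418_r_at, and at 157 and 104 against 110 and 90.3 by 96417_s_at. The groups of the brightest set overlapped in Hoxb8 and lay side by side in Hoxa6. The log2 changes of these sets were 0.17 for Hoxa6 (SE 0.183, limma adjusted p = 0.762) and 0.12 for Hoxb8 (SE 0.171, limma adjusted p = 0.826). Which of a gene's probe sets reports its transcript was not tested.

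**Figure D3:**
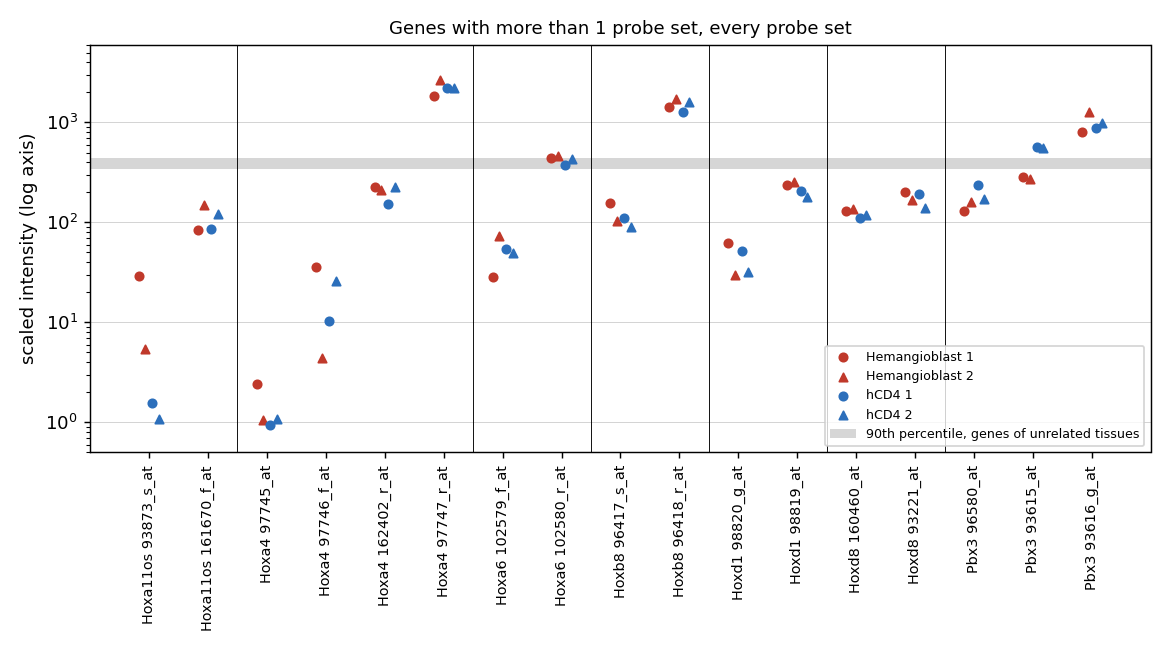
Scaled intensity (log axis) on each array for every probe set of the 7 member genes that have more than 1. The sets of Hoxa4 spread from a mean of 1.01 to one of 2206 on the hCD4 arrays, while for Pbx3 the middle set separates the groups and the brightest does not.

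Pbx3, a partner of Hox proteins, was the other place where probe sets disagreed, this time on the change. By 93615_at it was at 282 and 274 on the Hemangioblast arrays, against 568 and 559 on the hCD4 arrays, with little spread within a group. That set fell by 0.98 on the log2 scale (SE 0.180, limma adjusted p = 0.0208, with 1.56% of all probe sets called lower). By 93616_g_at, which the platform ties to the same sequence record and which is the brightest, Pbx3 was at 807 and 1267 against 872 and 979. Those groups overlapped, and the log2 change was 0.13 (SE 0.219, limma adjusted p = 0.864). The third set, 96580_at, was at 130 and 160 against 238 and 173, with a log2 change of -0.45 (SE 0.273, limma adjusted p = 0.501). The call of 93615_at was lost without Hemangioblast replicate 2 (adjusted p = 0.0583), without hCD4 replicate 1 (0.137), without hCD4 replicate 2 (0.141), without scaling (0.0806) and with the variance trend dropped (0.100). Pbx2, the other measured gene of the family, was at 228 and 229 against 200 and 206 (log2 change 0.16, SE 0.224, limma adjusted p = 0.832). Its groups did not overlap, as in 46.6% of all genes, although the change was smaller than its standard error.

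Among the Cdx genes, which act upstream of Hox genes, 0 of 3 passed the threshold, beside 5.38% of all genes. At an unadjusted p under 0.05, 0 of 3 passed, beside 18.3% of all genes. Cdx2, a gene of trophectoderm and posterior embryo, was at 149 and 137 on the Hemangioblast arrays, against 110 and 75.9 on the hCD4 arrays (log2 change 0.56, SE 0.301, limma adjusted p = 0.433). Cdx4, which is tied to blood specification in embryoid bodies, was at 58.5 and 77.7 against 39.2 and 55.3 (0.41, SE 0.343, limma adjusted p = 0.661). In both genes the Hemangioblast arrays lay above the hCD4 arrays, as in 24.5% of all genes, and neither change passed the threshold. Cdx1 was at 37.4 and 40.2 against 33.5 and 67.4, and its groups overlapped (-0.23, SE 0.378, limma adjusted p = 0.860). All values of Cdx1 and Cdx4 lay under the median of the genes of unrelated tissues on the same array.

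Of 31 coding Hox genes, 0 passed the threshold and 1 (Hoxa3) had an unadjusted p under 0.05, beside 5.38% and 18.3% of all genes. The log2 changes of the 31 Hox genes ran from -0.42 for Hoxb1 to 0.73 for Hoxa3, with 22 above 0 and 9 below, and a median of 0.12. That median was 0.04 with the arrays scaled to their medians, 0.07 after quantile normalization, 0.20 without Hemangioblast replicate 1, 0.07 without Hemangioblast replicate 2 and 0.23 without hCD4 replicate 2. Over all genes 52.5% of changes were above 0. By cluster the medians were 0.10 for 10 Hoxa genes, 0.12 for 9 Hoxb genes, 0.54 for 5 Hoxc genes and 0.14 for 7 Hoxd genes. By position in the cluster they were 0.10 for 5 genes of paralog groups 1 to 3, which are expressed toward the head, 0.13 for 14 genes of groups 4 to 8 and 0.11 for 12 genes of groups 9 to 13, which are expressed toward the tail. These medians by position are given as a description, and their differences were not tested. Paralog group 9, which holds the leukemia gene Hoxa9 and is measured in all 4 clusters, had a median of 0.36, with changes of 0.51 for Hoxa9, 0.21 for Hoxb9, 0.67 for Hoxc9 and 0.00 for Hoxd9.

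**Figure D4:**
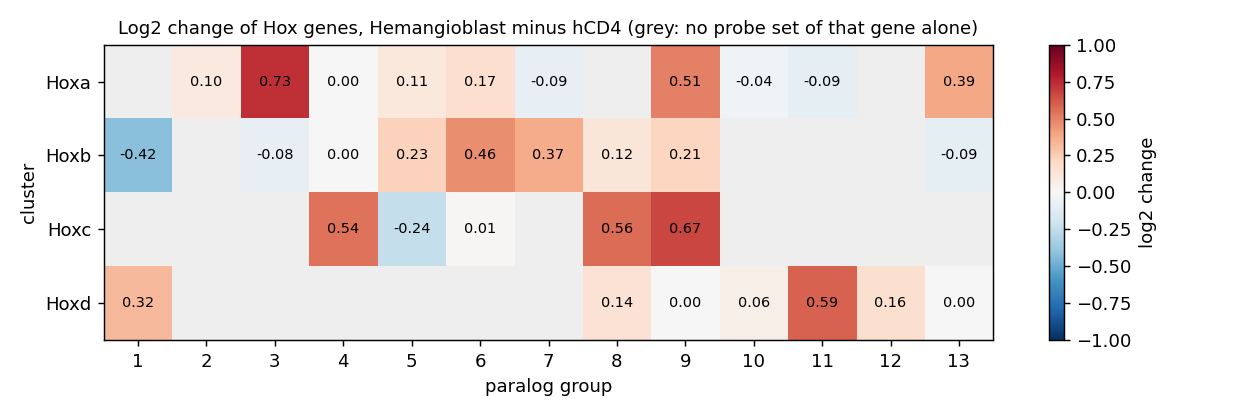
Log2 change (Hemangioblast minus hCD4) of the 31 coding Hox genes, with clusters as rows and paralog groups 1 to 13 as columns. The colour scale runs from -1 to 1, and values run from -0.42 (Hoxb1) to 0.73 (Hoxa3), none past an adjusted p of 0.05.

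In the Hoxa cluster, Hoxa3, a gene of the pharyngeal arches, was at 105 and 102 on the Hemangioblast arrays, against 55.9 and 56.3 on the hCD4 arrays. The groups did not overlap, as in 46.6% of all genes, and the change of 0.73 had a limma adjusted p of 0.285 (SE 0.306). Hoxa9, the Meis1 partner in blood progenitors and leukemia, was at 72.7 and 52.3 against 48.5 and 30.5 (0.51, SE 0.358, limma adjusted p = 0.581). Both Hemangioblast arrays lay above both hCD4 arrays, as in 24.5% of all genes, and all 4 lay under the median of the genes of unrelated tissues. Hoxa10, which like Hoxa9 is active in early blood cells, was at 268 and 306 against 256 and 342 (-0.04, SE 0.226), and its arrays overlapped. Hoxa2, a hindbrain gene, was at 288 and 315 against 318 and 246, Hoxa5 at 181 and 187 against 191 and 151, and Hoxa7 at 170 and 211 against 167 and 244. Hoxa11, a gene of limb and kidney, was at 153 and 180 against 171 and 185, and Hoxa13, a gene of limb tips and hindgut, at 34.4 and 52.1 against 21.9 and 36.9. In each of these 5 genes the groups overlapped. The antisense transcript Hoxa11os was at 83.1 and 148 against 85.5 and 121 by its brighter set and at 29.0 and 5.45 against 1.55 and 1.09 by the other, neither past the threshold (limma adjusted p = 0.936 and 0.398).

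In the Hoxb cluster, Hoxb4, which expands blood stem cells when overexpressed, had nearly equal values in both groups, at 148 and 159 on the Hemangioblast arrays, against 139 and 168 on the hCD4 arrays (log2 change 0.00386, SE 0.262, limma adjusted p = 0.999). Hoxb1, the earliest gene of its cluster in mesoderm and hindbrain, was at 85.5 and 82.4 against 123 and 112. It had the lowest change of the Hox genes, -0.42, but did not pass (SE 0.291, limma adjusted p = 0.572). Hoxb6, expressed in lateral mesoderm and red cell precursors, was at 182 and 163 against 109 and 133 (0.46, SE 0.269, limma adjusted p = 0.475). Hoxb5 was at 122 and 157 against 115 and 116, and Hoxb7 at 141 and 155 against 113 and 108. In these 3 neighbours every Hemangioblast array lay above every hCD4 array, as in 24.5% of all genes, and none of the 3 passed the threshold. Hoxb3 (71.8 and 103 against 110 and 76.7) and Hoxb13 (163 and 155 against 147 and 196) overlapped. Hoxb9 was dim throughout, at 1.03 and 16.5 against 2.66 and 6.04.

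The 5 Hoxc genes had the highest cluster median, but each missed the threshold. Hoxc8 was at 335 and 495 on the Hemangioblast arrays, against 244 and 304 on the hCD4 arrays (0.56, SE 0.244, limma adjusted p = 0.312). Hoxc4 was at 211 and 234 against 141 and 156 (0.54, SE 0.243, limma adjusted p = 0.328). Hoxc9, measured by a set that a gene family shares (_f_at), was at 124 and 219 against 102 and 94.3 (0.67, SE 0.326, limma adjusted p = 0.376). These 3 genes lay above with no overlap between groups, as did 24.5% of all genes. Hoxc5 lay the other way, at 75.9 and 102 against 109 and 106 (-0.24, SE 0.304), and Hoxc6 overlapped, at 266 and 282 against 206 and 357.

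In the Hoxd cluster, Hoxd11, a limb gene, was at 78.1 and 85.5 on the Hemangioblast arrays, against 43.4 and 55.0 on the hCD4 arrays (0.59, SE 0.323, limma adjusted p = 0.445). Hoxd1 was at 234 and 255 against 206 and 178 by its brighter set (0.32, SE 0.230, limma adjusted p = 0.583) and at 62.8 and 30.1 against 52.0 and 32.2 by the other. The brighter set separated the groups, as did those of 46.6% of all genes, and the other did not. Hoxd8 by its brighter set (203 and 166 against 194 and 139), Hoxd9 (171 and 132 against 133 and 169), Hoxd10 (193 and 310 against 201 and 274) and Hoxd12 (84.0 and 73.6 against 79.3 and 59.6) overlapped. The dimmer set of Hoxd8 was at 131 and 137 against 109 and 120, with no overlap, as in 44.4% of all probe sets (0.20, SE 0.274, limma adjusted p = 0.821). The sets of Hoxd9 and Hoxd10 are tied to 1 sequence record by the platform, so their names are less certain. Hoxd13, the gene at the tail end of the cluster, was at 0.939 and 1.05 against 0.936 and 1.09, deposited as 1 on every array before scaling.

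The wider pathway was described through 3 lists drawn from general knowledge. Of 39 measured regulators of Hox genes, such as Polycomb and Trithorax proteins and retinoic acid and Wnt components, 1 rose and 2 fell (3 and 7 at an unadjusted p of 0.05), with a median log2 change of -0.18. Beside them, 3.43% of all genes rose and 1.95% fell, with 18.3% at an unadjusted p of 0.05. Cyp26a1, which degrades retinoic acid, an inducer of Hox genes, was at 57.8 and 46.5 on the Hemangioblast arrays, against 2102 and 1695 on the hCD4 arrays, and fell by 4.81 on the log2 scale (SE 0.211, limma adjusted p = 4.12e-05). Both Hemangioblast values lay under the median of the genes of unrelated tissues, so the size depends on the added constant, from -5.16 with a constant of 1 to -4.07 with 64. Cbx2, a Polycomb protein that holds Hox genes silent, was at 262 and 288 against 554 and 530 and fell by 0.94 (SE 0.184, limma adjusted p = 0.0270). Another set of Cbx2 had a change of -0.47 (limma adjusted p = 0.558). Zbtb16, which encodes the zinc finger protein PLZF, was at 222 and 245 against 78.5 and 88.3 and rose by 1.33 (SE 0.265, limma adjusted p = 0.0293), while its dimmer set had a change of 0.29 (limma adjusted p = 0.877). The calls of Cbx2 and Zbtb16 were lost whichever array was left out (adjusted p of 0.0527 to 0.166 and 0.101 to 0.166). Next by p were Mllt3 at 370 ± 5.95 (SD, n = 2) against 196 ± 23.7, Fgf8 at 45.1 ± 10.5 against 177 ± 100.5 and Evx1, the homeobox gene beside the Hoxa cluster, at 251 ± 50.8 against 424 ± 14.9 (limma adjusted p = 0.0631, 0.0846 and 0.114).

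Of 8 measured partners of Hox, Meis and Pbx proteins, 0 passed the threshold in limma, beside 5.38% of all genes. At an unadjusted p of 0.05, 0 were higher and 3 lower, beside 18.3% of all genes in either direction. The median log2 change of the 8 partners was -0.41. The 3 with the smallest p were Tgif1, a related homeodomain repressor, at 208 ± 58.1 (SD, n = 2) against 424 ± 146, Hdac1, a histone deacetylase, at 389 ± 23.9 against 590.5 ± 67.8, and the transcription factor gene Sp1 at 427 ± 31.1 against 654 ± 200 (limma adjusted p = 0.130, 0.139 and 0.263). Pknox1, which binds Pbx proteins as Meis proteins do, was at 77.1 ± 50.2 against 58.6 ± 38.2, with groups that overlapped.

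Of 20 measured genes described as targets of Hox or Meis factors, 2 rose and 2 fell (3 and 4 at an unadjusted p of 0.05), with a median log2 change of -0.06, beside the same 3.43% and 1.95% of all genes. Of the genes called, Cd34 was also counted among the endothelial markers and Kdr among the markers of hemangioblast mesoderm. Cd34, which marks the surface of endothelium and early blood cells, was at 634 and 634 on the Hemangioblast arrays, against 138 and 149 on the hCD4 arrays (2.02, SE 0.197, limma adjusted p = 0.000896), and its second set also rose, from a mean of 173 to 536 (limma adjusted p = 0.0204). The chemokine gene Ccl3 rose by 2.25 (SE 0.261, limma adjusted p = 0.00222), from 97.6 ± 9.81 (SD, n = 2) to 535 ± 148. Kdr, which encodes the sorted receptor Flk-1, was at 648 and 570 against 1625 and 2003 and fell by 1.55 on the log2 scale (SE 0.168, limma adjusted p = 0.00158), and Sox4, a transcription factor gene, was at 570.5 and 510.2 against 1030 and 1046 and fell by 0.92 (SE 0.157, limma adjusted p = 0.0152). The call of Sox4 was lost without hCD4 replicate 1 (adjusted p = 0.111) and without hCD4 replicate 2 (0.129), and its other set had a change of -0.50 (limma adjusted p = 0.230). The stem cell factor receptor gene Kit was at 652 and 695 against 462 and 361, above in both arrays but short of the threshold (limma adjusted p = 0.0863). Fgf10 at 72.3 ± 11.0 against 162 ± 32.8 and Bmp4 at 1048 ± 115 against 1431 ± 200 followed (limma adjusted p = 0.125 and 0.226). Flt3 (404 ± 27.1 against 374 ± 87.1), Myb (617 ± 83.4 against 479 ± 113) and Pf4 (78.6 ± 0.811 against 56.6 ± 14.7), also in the list, did not pass (limma adjusted p = 0.865, 0.475 and 0.662). These 3 were picked after their values were seen and do not stand for the 20 targets, of which 2 rose and 2 fell.

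**Figure D5:**
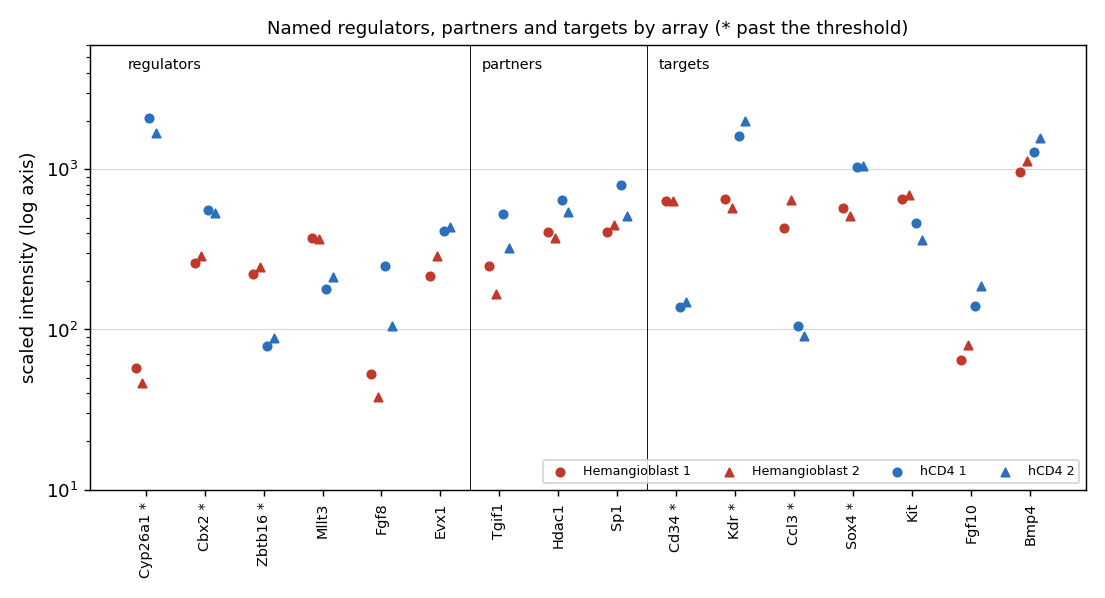
Scaled intensity (log axis) on each array for the named regulators, partners and targets, with a star on those past an adjusted p of 0.05. Cyp26a1 shows the widest gap, from about 52.1 on the Hemangioblast arrays to 1898 on the hCD4 arrays, while none of the partners shown has a star.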

How the data were processed

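RNA of 2 groups of 2 samples was labelled with biotin from 20 ug of total RNA and measured on single-colour arrays. For every probe set the authors deposited an intensity on a linear scale. How it was background-corrected and scaled, and with which software, is not given in the sources used here. Of 12488 probe sets, 66 controls were left out. Arrays were brought to a common trimmed mean (2% trimmed at each end, factors 0.936 to 1.09), and log2 of the scaled intensity plus 16 was fitted with limma 3.58.1 in R 4.3.3 (lmFit, eBayes with an intensity trend, no block), two-sided, with Benjamini-Hochberg adjustment over 12422 probe sets and a threshold of 0.05. The fit was tested on simulated data with changes placed only in probe sets brighter than the median. It recovered 23.4% of the 1.5-fold changes, 82.1% of the 2-fold changes and 99.8% of the 4-fold changes. Recovery in dimmer probe sets was not tested. An exact permutation test of 2 against 2 arrays cannot give a p below 0.333, so none was used. Genes were named from the platform annotation (10833 probe sets with 1 symbol, 396 with several, 1193 with none), and 10817 of the 10833 were found in a reference table by gene identifier. A gene with several probe sets is represented by the one with the highest mean.

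The members, lists and tests were chosen with earlier results of these data known. Values on all arrays were to be given for members past the threshold or above background and for Hoxa9, Hoxb4, Meis1, Cdx1, Cdx2 and Cdx4. In each of the 3 pathway lists, genes past the threshold and the next 3 by p were to be named. Values of further members are given as description. Lists of neural and endoderm markers were also summed (2693 to 3005 against 3073 to 3184, and 1572 to 1756 against 1879 to 1909, Hemangioblast against hCD4). The number of arrays limits the precision. Alternatives were the added constant, the scaling, a filter on dim probe sets, the variance trend, a replicate block, each array left out and other background levels. Plots were made with Python 3.11.15 and matplotlib 3.10.9.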

Additional observations from a re-analysis of the deposited data

How the results depend on the processing

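Meis1 stayed past the threshold under every setting that tested it, and with dim probe sets left out it was not tested, so 0 members were called higher. When every member probe set was counted, 1 was lower (Pbx3, 93615_at). Over 565 values of member probe sets under an alternative, 505 kept their direction and their side of the threshold, 55 that were never called changed sign, 5 lost a call (all of 93615_at) and 0 gained one. Over all probe sets, 362 were higher and 194 lower. These counts were 222 and 50 without scaling, 188 and 32 without an intensity trend, and 305 were lower with dim probe sets left out. With 1 array left out they ran from 170 to 283 higher and from 42 to 234 lower. Of 4 genes of the regulator, partner and target lists called lower, 2 were left without scaling, 2 without a trend and 2 to 3 with 1 array left out, and of 3 called higher 2 were left with any 1 array out. The cause of these differences was not tested. The replicate block gave 432 higher and 278 lower probe sets, and the deviations of same-numbered arrays correlated with -0.00781. The 3' to 5' ratio of Gapdh was lower on replicate 2 than on replicate 1 in both groups. It was 1.03 against 1.33 in the Hemangioblast group and 1.03 against 1.13 in the hCD4 group. Whether same-numbered arrays share a batch was not tested. The block did not change the call of Meis1. The background level decides how many members lie above it. The counts were 27 (Hemangioblast) and 28 (hCD4) above the median of the genes of unrelated tissues, and 2 and 2 above their highest. They were 28 and 26 above an intensity of 100, and 0 and 0 above the highest Bacillus subtilis control, which was at 7540 to 9270. That control does not serve as a background level, since even the highest gene of unrelated tissues was at 961 to 1250. Chosen after seeing the data, the highest antisense control gave 4 and 3, and leaving out sets ending in _r_at or _f_at gave 1 and 1.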
